A study of Homo sapiens with 4 samples.

Results

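The transcripts of 6 secreted matrix glycoprotein genes, FN1, TNC, THBS1, TGFBI, SPARC and POSTN, were followed through the 4 libraries of a TGF-β1 time point in MCF10A cells. The members were chosen by gene name, and their transcripts were found through the GENCODE map of transcripts to genes. They made up 82 of the 173259 transcripts in each table and 6 of the 34500 genes to which those transcripts could be summed. MCF10A is an immortalised, non-tumorigenic human mammary epithelial line, and every library came from MCF10A cells that stably carried a scramble shRNA, a hairpin without an intended target. Cells were given TGF-β1 at 5 ng/ml for 1.5 h (2 libraries) or were harvested as controls at 0 h (2 libraries), and the duplicates, which the labels call biological, are numbered 1 and 2. All were grown in medium with horse serum, epidermal growth factor, insulin, hydrocortisone and cholera toxin. The control was taken at 0 h, so treatment and the time spent after the start cannot be told apart, and every library carries the same hairpin in the same line.

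The tables held 35737659 and 40461473 estimated counts for TGF-β1 replicates 2 and 1, and 36693330 and 40792300 for control replicates 2 and 1. SMAD7, an inhibitory SMAD that TGF-β signalling induces, had 100.1 and 129 CPM (the counts of a gene scaled to the library's total) in TGF-β1 replicates 2 and 1, against 8.27 and 8.58 CPM in control replicates 2 and 1. SKIL, a SMAD co-repressor that TGF-β signalling also induces, had 187 and 181 CPM with TGF-β1, against 43.7 and 56.4 CPM in the controls. Summed basal mammary markers such as KRT5 reached 10519 to 16151 CPM per library, luminal markers 45 to 47.1 CPM, fibroblast and mesenchymal markers 685 to 815 CPM, which were mostly VIM (585 to 703 CPM), and endothelial and blood markers 14.6 to 17.1 CPM. Libraries with the number 2 differed widely from those with the number 1 under both treatments, and that difference was larger than that between treatments for every member gene sum above a few counts, as set out below.

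Fibronectin (FN1) is a dimeric adhesive glycoprotein that cells pull into fibrils through integrins, and it carries the fibrils to which other matrix proteins attach. Tenascin-C (TNC), thrombospondin-1 (THBS1), SPARC and periostin (POSTN) are matricellular proteins, which tune cell attachment, matrix assembly and growth factor access more than they build structure; THBS1 is also known to activate latent TGF-β. TGFBI, named for its induction by TGF-β, is an integrin-binding protein of the extracellular matrix with fasciclin domains, as is POSTN. TGF-β is known to raise the production of most of these proteins over many hours, and FN1 and TNC are also classic cases of alternative splicing.

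Per unit of transcript length, TGFBI was the most abundant member in each library and POSTN was close to absent. TGFBI summed to 724 and 1810 TPM (transcripts scaled by length and library total) in TGF-β1 replicates 2 and 1, against 622 and 2025 TPM in control replicates 2 and 1. THBS1 came next, with 88.9 and 262 TPM under TGF-β1 against 96.9 and 350 TPM in the controls. FN1 had 27.3 and 53.0 TPM under TGF-β1 against 22.1 and 76.6 TPM in the controls. In all 3 genes both replicates 2 lay below both replicates 1, as CPM did for 36.6% of tested genes, and the treatments overlapped.

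SPARC, a collagen-binding glycoprotein, had 22.6 and 11.1 TPM in TGF-β1 replicates 2 and 1, against 20.0 and 12.0 TPM in control replicates 2 and 1. TNC had 1.84 and 9.76 TPM under TGF-β1, against 2.24 and 15.8 TPM in the controls. SPARC was the only member above a few counts whose replicates 2 were both the higher ones, an order that 35.9% of tested genes had in CPM. The order TGFBI, THBS1, FN1 held in all 4 libraries, whereas SPARC stood above TNC in 3 libraries and below it in control replicate 1. FN1 and SPARC were close neighbours in the replicate 2 libraries. POSTN had 5 and 11 estimated counts in TGF-β1 replicates 2 and 1, against 0 and 11 in control replicates 2 and 1. A count of 0 in control replicate 2 allows up to 0.0818 CPM (3 counts), and with so few counts no fold is given. POSTN was not called in either comparison (edgeR unadjusted p = 0.68 for TGF-β1 against control and 0.099 for replicate 2 against replicate 1).

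**Figure D1:**
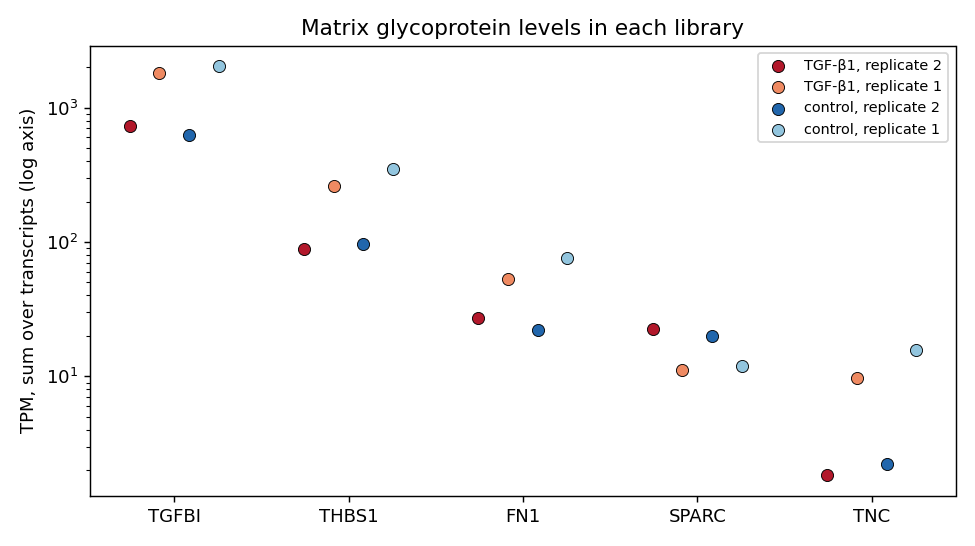
TPM of each member, summed over its transcripts (log axis), in each library; each point is 1 library, and POSTN is left out because it had 0 to 11 estimated counts. TGFBI lies highest in every library, and for TGFBI, THBS1, FN1 and TNC the libraries numbered 2 lie below those numbered 1, whereas SPARC has the opposite order.

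None of the 6 gene sums was called between TGF-β1 and control by edgeR or DESeq2 without a term for the replicate number. With edgeR's quasi-likelihood test on estimated counts, adjusted by the Benjamini-Hochberg method over 14774 genes at a threshold of 0.05, 0 genes in all were called (0%), 255 had an unadjusted p under 0.05, and none of the 6 was among them. DESeq2 called 90 of the 19649 genes it tested (0.458%), with no member among them. SMAD7 and SKIL were also missed by edgeR without that term, and were called by DESeq2 and by edgeR with the term. The lack of an edgeR call without the term thus does not show that a gene did not respond. The treatments overlapped in CPM for all 6, whereas 7.87% of tested genes had both TGF-β1 libraries above both controls and 8.34% had both below. THBS1 was lower under TGF-β1 than in the control of the same number in both pairs, with 343 and 1105 CPM in TGF-β1 replicates 2 and 1 against 391 and 1495 CPM in control replicates 2 and 1. Its log2 fold change was -0.38 ± 0.86 (SE; n = 2 each; edgeR adjusted p = 1.0). With the replicate number as a term, THBS1 was called by DESeq2 (log2 fold change -0.31, adjusted p = 0.010) and not by edgeR (adjusted p = 0.11). That DESeq2 fit was added after seeing the data, and its count over all genes is given below without a share. The edgeR fit with that term called 334 of 14774 genes (2.26%).

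FN1, TNC, TGFBI and SPARC went opposite ways in the pair of replicates numbered 2 and the pair numbered 1. FN1 had 134 and 257 CPM in TGF-β1 replicates 2 and 1 against 121 and 435 CPM in control replicates 2 and 1, which is a log2 ratio of 0.15 within number 2 and of -0.76 within number 1. TNC had log2 ratios of 0.03 within number 2 and -0.67 within number 1. TGFBI, the gene named for induction by TGF-β, had 1338 and 3147 CPM under TGF-β1 against 1149 and 3683 CPM in the controls, with log2 ratios of 0.22 within number 2 and -0.23 within number 1. SPARC had 0.20 within number 2 and -0.19 within number 1. Each of these ratios rests on 1 library per treatment, so their difference between the numbers has no test. The fitted log2 fold changes were -0.51 ± 0.70 for FN1, -0.58 ± 1.23 for TNC, -0.11 ± 0.71 for TGFBI and 0.06 ± 0.49 for SPARC (SE; n = 2 each; edgeR adjusted p = 1.0 for each). The SE of these fits includes the difference between replicate numbers.

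**Figure D2:**
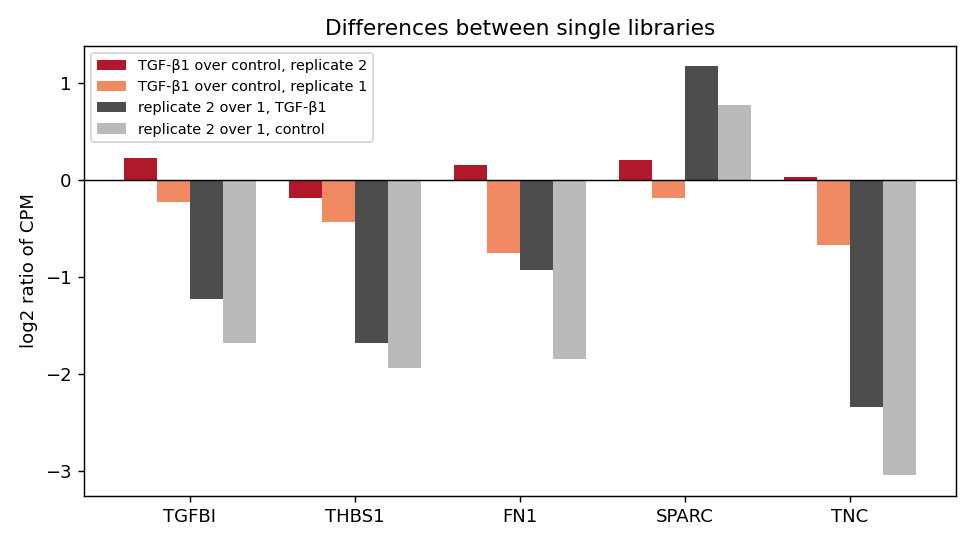
log2 ratios of CPM between single libraries for 5 members: TGF-β1 over control within each replicate number, and replicate 2 over replicate 1 within each treatment; each bar compares 1 library with 1 library and has no error. The grey bars, between replicate numbers, are longer than the coloured bars, between treatments, for all 5 genes, and only THBS1 has both coloured bars on the same side of 0.

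Below the level of gene sums, the transcripts annotated as retaining an intron separated TGF-β1 from control for TGFBI and FN1. These transcripts hold intron sequence that the protein-coding messenger lacks. Besides reads that fall in it, kallisto gives them a share of the reads in exons that they have in common with other transcripts. Their estimated counts are therefore not counts of intron reads. Reads from such a transcript and reads from precursor RNA not yet spliced cannot be told apart in these tables, and the labels name both a total RNA kit with ribosomal RNA removal and polyA RNA as the material. Except for SPARC-202, the retained-intron transcripts fall outside the rule for named transcripts, and this class was singled out after its values were seen. An exon-intron border from each of 3 genes shows where transcripts of this class run on into an intron, with exon bases in lower case and intron bases in capitals, all on GRCh38 and read from the GENCODE transcripts. The TGFBI border enters intron 4 (chr5:136046466-136046525, plus strand), the FN1 border enters intron 32, right after the EDA exon (chr2:215380781-215380840, minus strand), and the THBS1 border enters intron 19 (chr15:39593639-39593698, plus strand).
TGFBI exon to intron 4: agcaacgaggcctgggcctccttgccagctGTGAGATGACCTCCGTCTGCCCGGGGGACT
FN1 exon to intron 32: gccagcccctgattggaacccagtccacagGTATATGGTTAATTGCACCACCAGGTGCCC
THBS1 exon to intron 19: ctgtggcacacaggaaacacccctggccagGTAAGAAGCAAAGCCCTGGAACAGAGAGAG
Introns are numbered from the 5′ end along the main coding transcript, of which TGFBI has 16, FN1 45 and THBS1 21.

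The 6 retained-intron transcripts of TGFBI summed to 4825 and 9381 estimated counts in TGF-β1 replicates 2 and 1, against 1136 and 1235 in control replicates 2 and 1. On the CPM scale this was 139 and 241 under TGF-β1 against 30.7 and 31.5 in the controls, 4.53-fold higher within number 2 and 7.67-fold higher within number 1. Both TGF-β1 libraries lay above both controls, and the controls were alike although the gene's other transcripts differed between them. Those other transcripts had 1190 and 2924 CPM under TGF-β1 against 1106 and 3697 CPM in the controls, with ratios of 1.08 within number 2 and 0.791 within number 1. Retained-intron transcripts thus took 10.5% (95% Wilson interval 10.2 to 10.7) and 7.62% (7.47 to 7.77) of the TGFBI counts in TGF-β1 replicates 2 and 1, against 2.70% (2.55 to 2.86) and 0.844% (0.798 to 0.892) in control replicates 2 and 1. These intervals cover counting error only, since the reads carry no molecular identifiers and the counts are estimates.

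FN1 showed the same separation at a lower level. Its 13 retained-intron transcripts summed to 183 and 289 estimated counts in TGF-β1 replicates 2 and 1, against 33.5 and 46.3 in control replicates 2 and 1. In CPM these were 5.27 and 7.43 under TGF-β1 against 0.918 and 1.17 in the controls, 5.74-fold higher within number 2 and 6.34-fold higher within number 1. The other FN1 transcripts had 128 and 251 CPM under TGF-β1 against 119 and 439 CPM in the controls, with ratios of 1.08 and 0.571. The retained-intron share of FN1 counts was 3.94% (3.42 to 4.55) and 2.88% (2.57 to 3.22) under TGF-β1, against 0.757% (0.550 to 1.07) and 0.268% (0.20 to 0.355) in the controls. As a share of FN1 TPM it was 18.9% and 14.6% under TGF-β1, against 6.65% and 0.680% in the controls, which thus differed widely from each other.

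THBS1 and SPARC did not show this separation, and TNC and POSTN have no transcript of that class in the map. The 6 THBS1 retained-intron transcripts had 8.0 and 12.5 CPM in TGF-β1 replicates 2 and 1 against 6.62 and 18.5 CPM in control replicates 2 and 1, so the treatments overlapped. SPARC had 8.84 and 3.99 CPM under TGF-β1 against 8.26 and 4.84 CPM in the controls.

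**Figure D3:**
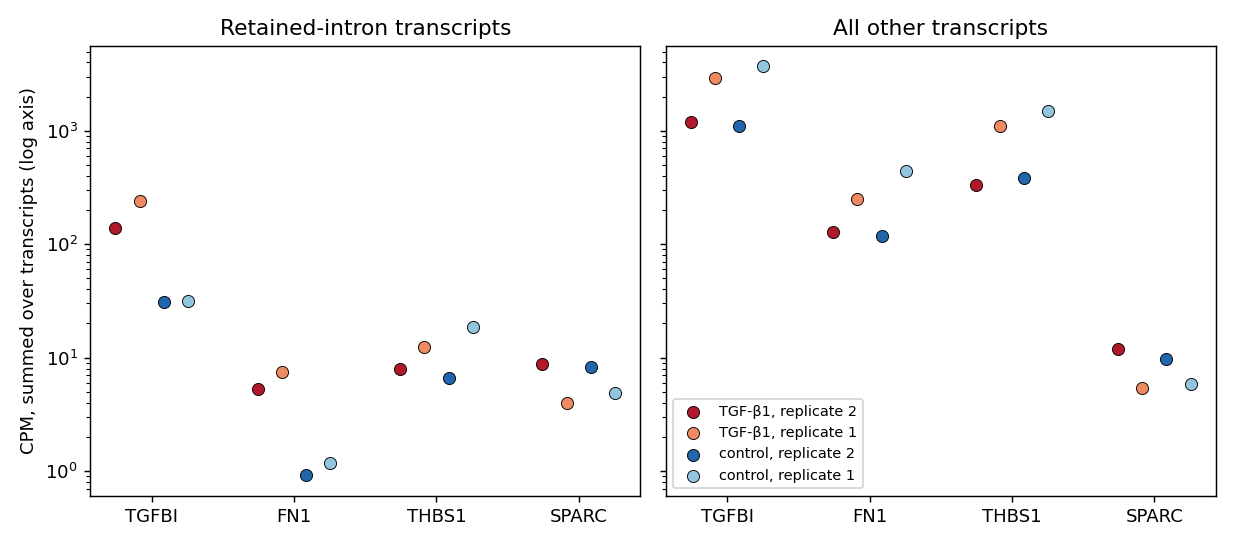
CPM of retained-intron transcripts (left) and of all other transcripts (right) of each gene (log axis), with 1 point per library. For TGFBI and FN1 both TGF-β1 points lie above both control points on the left (139 and 241 against 30.7 and 31.5 CPM for TGFBI), and not on the right; for THBS1 and SPARC the treatments overlap on both sides.

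Whether these sums passed a test depended on the tool and on whether the replicate number was a term of the fit. In edgeR without that term, the retained-intron sum of TGFBI had a log2 fold change of 2.61 ± 0.30 (SE; n = 2 each; unadjusted p = 0.00044, adjusted p = 0.32) and that of FN1 2.60 ± 0.33 (unadjusted p = 0.00073, adjusted p = 0.41), and edgeR called 0 of 5370 such sums (0%). DESeq2 called both, with adjusted p = 6.41e-13 for TGFBI and 1.83e-06 for FN1, among 24 of 6695 retained-intron sums (0.358%). With the replicate number as a term edgeR called both as well (adjusted p = 0.014 and 0.018). The p-values of these sums were adjusted over the retained-intron and the other sums of all genes together. The shares count the retained-intron sums only. Of the 5370 sums, 637 (11.9%) had both TGF-β1 libraries above both controls, and 28 (0.521%) were at least 4-fold higher within both numbers. As a change relative to the rest of the gene, the log2 ratio of retained-intron to other CPM (0.5 CPM added to each) was higher under TGF-β1 by 2.66 ± 0.47 for TGFBI and by 2.48 ± 0.52 for FN1 (SE; n = 2 each; limma adjusted p = 0.64 and 0.77), and limma called 0 of 5200 genes (0%). With the replicate number as a term limma called both (adjusted p = 4.11e-05 and 0.0013). These were the highest and the next highest of the 5200 differences, whose median was -0.05. The same difference was 0.17 ± 0.39 for THBS1 and -0.15 ± 0.28 for SPARC. Over whole libraries, retained-intron transcripts held 3.14% and 2.82% of counts in TGF-β1 replicates 2 and 1, against 3.39% and 2.72% in control replicates 2 and 1.

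Within TGFBI the difference ran along the gene. All 6 retained-intron transcripts, which cover parts or all of introns 3 to 7, 10, 12 and 14, were higher under TGF-β1 within both numbers, by 3.54-fold to 20.3-fold in TPM within number 2 and by 6.60-fold to 35.3-fold within number 1. The 6 are estimates from the reads of a single gene, so they are not separate results. The share of all transcripts that were higher within both numbers was not computed. TGFBI-205, of 3159 bases, holds the whole of intron 4 (355 bases) and 97 bases of intron 6. It carried most of the estimated counts of the class, with 3448 and 6564 under TGF-β1 against 986 and 1013 in the controls. TGFBI-214, which holds introns 4, 5 and 6 whole, had 707 and 1429 estimated counts under TGF-β1 against 79.0 and 131 in the controls. TGFBI-211, with 323 bases of intron 12, had 75.9 and 116 under TGF-β1 against 3.91 and 3.85 in the controls.

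Of the TGFBI transcripts of other classes that hold intron bases, TGFBI-203, TGFBI-209 and TGFBI-215 had both TGF-β1 libraries above both controls, whereas TGFBI-206 overlapped and TGFBI-207 was lower under TGF-β1 within both numbers (0.761 and 0.813 times the control TPM). How many of all transcripts had both TGF-β1 libraries above both controls was not computed. TGFBI-215, annotated as protein-coding but holding 531 of the 818 bases of intron 10, had 380 and 604 estimated counts under TGF-β1 against 70.5 and 82.7 in the controls. The main coding transcript TGFBI-201 had 35240 and 101003 estimated counts under TGF-β1 against 38050 and 133616 in the controls, lower within both numbers, with a log2 fold change of -0.30 ± 0.75 (SE; n = 2 each; edgeR adjusted p = 1.0). Across transcripts edgeR called 0 of 57796 (0%) for TGF-β1 against control. DESeq2 called 252 of 57045 higher (0.442%), and among them were 5 of the 6 TGFBI retained-intron transcripts (TGFBI-204, TGFBI-205, TGFBI-211, TGFBI-212 and TGFBI-214) and TGFBI-215. TGFBI-205 had a DESeq2 log2 fold change of 2.37 (adjusted p = 6.34e-09), TGFBI-214 of 3.40 (adjusted p = 1.30e-09) and TGFBI-215 of 2.74 (adjusted p = 2.75e-07), and TGFBI-210 missed the threshold with adjusted p = 0.053.

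**Figure D4:**
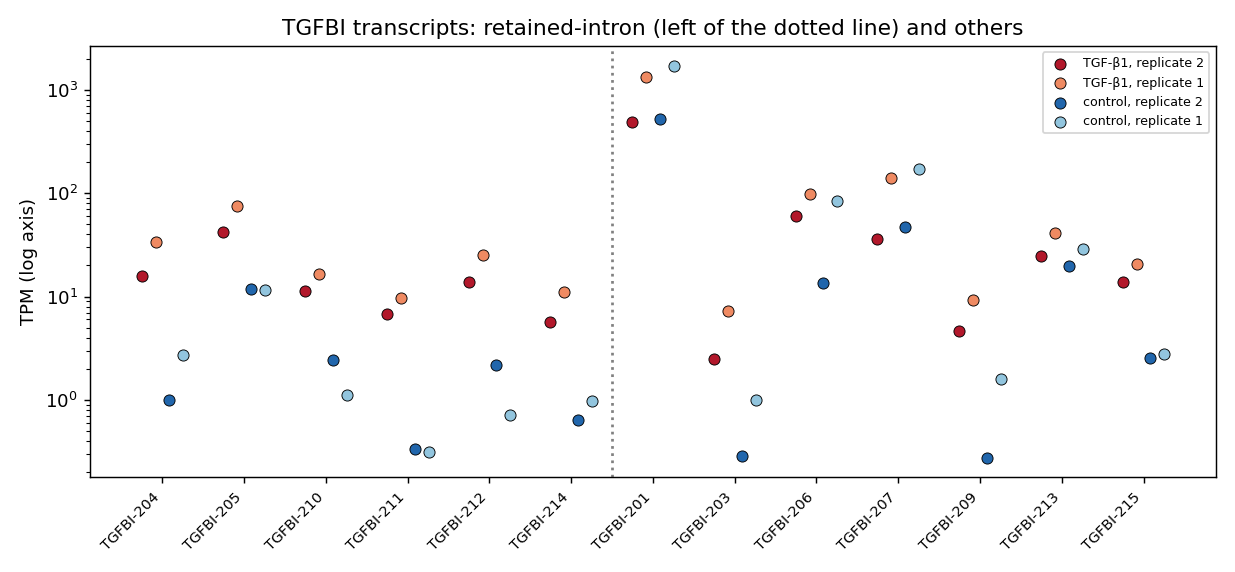
TPM of TGFBI transcripts (log axis) in each library, with the 6 retained-intron transcripts left of the dotted line and, to its right, the other transcripts with over 3 estimated counts in every library. All 6 on the left have both TGF-β1 points above both control points, an order whose share over all transcripts was not computed. TGFBI-201, the most abundant transcript, has replicate 1 points above replicate 2 points.

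Of the FN1 retained-intron transcripts, FN1-224 had the most estimated counts under TGF-β1. It had 110 and 175 in TGF-β1 replicates 2 and 1 against 12.7 and 35.9 in control replicates 2 and 1. It holds introns 28, 31 and 32 whole, so both introns beside the EDA exon, and 1907 of the 2713 bases of intron 24, in which the EDB exon lies. FN1-224 was not called by DESeq2 (adjusted p = 0.11), and it was the only FN1 retained-intron transcript above 3 counts in all 4 libraries. FN1-208 is annotated as protein-coding but holds 176 bases of intron 13. It had 111 and 184 estimated counts in TGF-β1 replicates 2 and 1 against 0 and 17.5 in control replicates 2 and 1 (edgeR unadjusted p = 0.057). FN1-204, a coding transcript that also holds intron bases, was lower under TGF-β1 within both numbers.

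The spliced forms of FN1 differ in the extra domains EDA and EDB, each a single fibronectin type III repeat encoded by 1 exon, which mark cellular fibronectin and are left out of the plasma form made by liver. The exons that define the forms are given here from the GENCODE transcripts (GRCh38, minus strand); EDB lies at chr2:215392931-215393203 (273 bases) and EDA at chr2:215380811-215381080 (270 bases), and no base is marked.
FN1 EDB exon: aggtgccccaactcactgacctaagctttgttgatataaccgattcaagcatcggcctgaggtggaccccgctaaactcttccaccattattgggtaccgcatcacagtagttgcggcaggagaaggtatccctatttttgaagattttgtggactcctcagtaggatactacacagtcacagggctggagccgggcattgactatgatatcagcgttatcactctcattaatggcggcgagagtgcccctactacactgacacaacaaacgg
FN1 EDA exon: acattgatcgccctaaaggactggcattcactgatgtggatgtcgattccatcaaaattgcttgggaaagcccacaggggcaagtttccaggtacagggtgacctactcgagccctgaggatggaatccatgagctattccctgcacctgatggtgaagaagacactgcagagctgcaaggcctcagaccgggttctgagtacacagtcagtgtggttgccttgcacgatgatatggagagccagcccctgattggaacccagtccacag
Transcripts with EDA held 53.8% and 64.6% of the informative FN1 TPM in TGF-β1 replicates 2 and 1, against 49.0% and 59.2% in control replicates 2 and 1. The share was higher with TGF-β1 within each number, but TGF-β1 replicate 2 lay below control replicate 1. Transcripts with EDB held 7.39% and 17% under TGF-β1 against 7.95% and 12.5% in the controls, so its order differed between the numbers. Both shares were lower in the libraries numbered 2. For EDB this order rests on FN1-201, a transcript with that exon. It had 1.8e-07 and 1143 estimated counts in TGF-β1 replicates 2 and 1, against 5.76e-06 and 1664 in control replicates 2 and 1. FN1-209, also with EDB, held more of FN1 TPM in number 2 under both treatments. FN1-203, also with EDB, did so in the controls only (5.60% and 1.99%, against 3.18% and 3.47% under TGF-β1). Shares were not tested, and with short reads the division among forms that share most exons is an estimate.

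Of the single FN1 transcripts, FN1-212 held the largest share, with 34.1% and 39.5% of FN1 TPM under TGF-β1 against 40.2% and 47.9% in the controls. FN1-204 held 14.2% and 14.4% under TGF-β1 against 24.4% and 22.7% in the controls, lower within both numbers. Its log2 fold change was -0.97 ± 0.67 (SE; n = 2 each; edgeR adjusted p = 1.0). FN1-211 held 17.6% and 10.9% under TGF-β1 against 19.2% and 13.1% in the controls.

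TNC carries 8 alternative type III repeats in its map, and the large forms that include them were a smaller part of TNC in the libraries numbered 2. The repeat counted as 1 here, the most 5′ of them (chr9:115064647-115064919, minus strand), was in 38% and 67.0% of the informative TNC TPM in TGF-β1 replicates 2 and 1, against 38.5% and 70.6% in control replicates 2 and 1. The repeat counted as 6 had the opposite order, with 11.6% and 4.74% under TGF-β1 against 12.3% and 3.56% in the controls. Transcripts TNC-202 and TNC-211 show the shift. TNC-202 held 27.6% and 47.0% of TNC TPM under TGF-β1 against 16.9% and 41.2% in the controls, and TNC-211 held 50.4% and 27.3% under TGF-β1 against 40.7% and 18.5% in the controls. The TNC shares in number 2 rest on 305 and 317 estimated counts (TGF-β1 and control), against 1755 and 2838 in number 1.

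**Figure D5:**
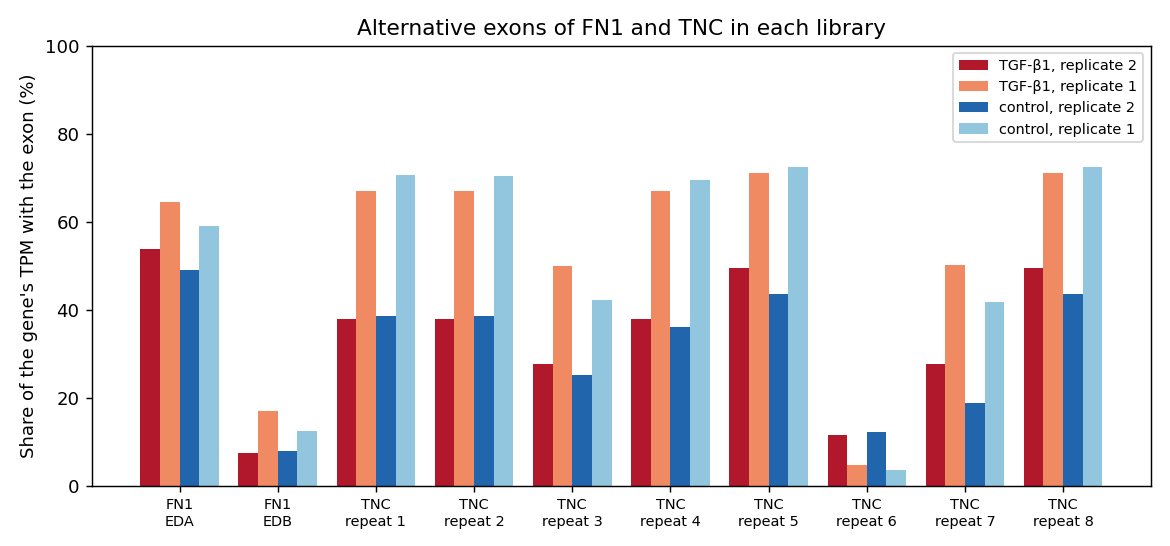
Share of the TPM of FN1 or TNC in transcripts that include each alternative exon, out of transcripts that include or skip it (%), with 1 bar per library and no error bars; TNC repeats are numbered from the 5′ end. EDA is included more than EDB in every library, and 7 of the 8 TNC repeats have lower bars in the replicate 2 libraries, in both treatments, whereas repeat 6 has higher bars there.

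The main division among the 6 genes was between the replicate numbers. For replicate 2 against replicate 1, with 1 TGF-β1 and 1 control library on each side, edgeR called 5524 of 14774 genes (37.4%), of which 2422 were higher (16.4%) and 3102 lower (21.0%). The spread within a side was thus the difference between treatments, and the p-values do not measure how like cultures vary. Of the members, 4 of 6 were called lower in replicate 2 (FN1, TNC, THBS1 and TGFBI), 1 was called higher (SPARC), and POSTN was not called (adjusted p = 0.17). With 37.4% of all genes called, a call by itself sets no member apart; the sizes do so only as a description. Of the tested genes, 284 (1.92%) were at least 2-fold lower in replicate 2 in both treatments.

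TNC differed most, with 8.84 and 8.65 CPM in replicate 2 (TGF-β1 and control) against 44.9 and 71.4 CPM in replicate 1. It was 5.08-fold lower within TGF-β1 and 8.25-fold lower within control, with a log2 fold change of -2.73 ± 0.24 (SE; n = 2 each; edgeR adjusted p = 0.0021). Of the 14774 tested genes, 0.129% had a lower fitted log2 fold change. THBS1 fell by 1.83 ± 0.16 on the log2 scale (edgeR adjusted p = 0.0021; n = 2 each), 3.22-fold within TGF-β1 and 3.83-fold within control. TGFBI fell by 1.46 ± 0.11 (edgeR adjusted p = 0.0015; n = 2 each), 2.35-fold within TGF-β1 and 3.20-fold within control.

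FN1 fell by 1.44 ± 0.25 on the log2 scale (edgeR adjusted p = 0.011; n = 2 each), 1.91-fold within TGF-β1 and 3.60-fold within control. Without control replicate 2 it missed the threshold, at -1.35 and edgeR adjusted p = 0.059. SPARC rose, with 20.8 and 18.2 CPM in replicate 2 (TGF-β1 and control) against 9.28 and 10.6 CPM in replicate 1, a log2 fold change of 0.97 ± 0.11 (SE; n = 2 each; edgeR adjusted p = 0.0040). The retained-intron sum of TGFBI was not called between the numbers. Under TGF-β1 it had 139 CPM in replicate 2 and 241 CPM in replicate 1, and in the controls 30.7 CPM in replicate 2 and 31.5 CPM in replicate 1. Its fitted log2 difference was -0.69 ± 1.09 (edgeR adjusted p = 0.69; n = 2 each), in a comparison where edgeR called 6.16% of such sums. The other TGFBI transcripts fell by 1.53 ± 0.12 (edgeR adjusted p = 0.0025; n = 2 each). The log2 ratio of its retained-intron to its other CPM was 1.10 higher in replicate 2, which limma did not call (adjusted p = 0.60).

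Several other measures moved with the replicate number, and their part in these results was not tested. The gene PHF8, a histone demethylase, had 4.0 and 3.88 CPM in replicate 2 (TGF-β1 and control) against 20.0 and 20.2 CPM in replicate 1. Ribosomal protein genes held 8.96% and 8.73% of counts in replicate 2 against 6.84% and 6.87% in replicate 1. Against 16.4% of all genes called higher and 21.0% lower, 1 of the 10 basal mammary markers was called higher and 5 lower in replicate 2. Of the 4 epithelial markers 3 were called lower (CDH1, KRT8 and KRT18), of the 4 tested luminal markers 2 were called higher and 1 lower, and of the 8 tested fibroblast and mesenchymal markers 1 was called higher and 2 lower. Endothelial and blood markers, of which 3 of 6 could be tested, had no call. The labels give no culture date, passage or density for either number.

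All 6 genes have a RefSeq promoter entry (GRCh38.p14), and the 250 bases before the annotated start were searched on both strands for CAGAC, the short site that SMAD proteins bind, for TGANTCA, the site of AP-1, and for TGACGTCA, the cyclic AMP response element. CAGAC was found in 38% of the 35116 promoters in the table, TGANTCA in 6.57% and TGACGTCA in 1.65%. Among the members CAGAC occurred 1 time each in TNC, THBS1 and POSTN, TGANTCA 1 time in POSTN, and TGACGTCA 1 time in FN1; the windows of TGFBI and SPARC held none of these letters. The FN1 and THBS1 windows are shown as examples with a match, with the matches in capitals. Both genes were called by edgeR between the replicate numbers, and neither was called by edgeR for TGF-β1 against control. TNC, also called between the replicate numbers and with a match, is not shown. FN1 is at chr2:215436069-215436318 (minus strand) and THBS1 at chr15:39580829-39581078 (plus strand).
FN1 promoter: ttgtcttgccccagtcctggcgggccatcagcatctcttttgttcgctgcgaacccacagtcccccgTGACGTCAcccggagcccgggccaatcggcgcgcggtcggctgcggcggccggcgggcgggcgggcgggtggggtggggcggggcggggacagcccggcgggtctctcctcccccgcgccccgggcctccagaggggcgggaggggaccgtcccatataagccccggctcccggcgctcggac
THBS1 promoter: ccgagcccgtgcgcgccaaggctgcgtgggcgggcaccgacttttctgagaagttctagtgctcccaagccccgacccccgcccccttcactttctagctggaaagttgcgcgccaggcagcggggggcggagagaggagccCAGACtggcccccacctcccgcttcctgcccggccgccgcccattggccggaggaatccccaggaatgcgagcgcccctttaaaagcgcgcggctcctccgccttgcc
A match is a description of the letters and not a measured binding site.

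The related gene families, receptors and assembly enzymes had no edgeR call for TGF-β1 against control: 0 of 7 tested relatives, 0 of 19 receptors, 0 of 29 other matrix glycoproteins and 0 of 19 assembly and cross-linking genes. Their median log2 fold changes were -0.06, -0.03, -0.03 and 0.01, against -0.01 for all tested genes. DESeq2 called 1 gene in these lists, CCN2, a matricellular growth factor binder and known TGF-β target, with 18.8 and 21.7 CPM in TGF-β1 replicates 2 and 1 against 4.12 and 7.25 CPM in control replicates 2 and 1 (adjusted p = 0.00025). CCN1, its relative, had 19.7 and 25.0 CPM under TGF-β1 against 5.60 and 11.9 CPM in the controls (DESeq2 adjusted p = 0.23). LOX, which cross-links collagen and elastin, had 95 and 69.8 CPM under TGF-β1 against 61.6 and 55.5 CPM in the controls (edgeR unadjusted p = 0.056). With the replicate number as a term, edgeR called 334 of all 14774 tested genes (2.26%). In these lists that fit called CCN2, CCN1, LOX and FURIN, a protease that matures growth factor precursors, higher (adjusted p = 0.0013, 0.0073, 0.024 and 0.018). They were 2 of the 29 other matrix glycoproteins and 2 of the 19 assembly and cross-linking genes. ITGA5, the fibronectin receptor subunit, had 325 and 437 CPM under TGF-β1 against 222 and 382 CPM in the controls.

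Between the replicate numbers, where edgeR called 16.4% of all tested genes higher and 21.0% lower, it called 4 of the 7 tested relatives higher in replicate 2 and 3 lower, 5 of the 19 receptors higher and 7 lower, 6 of the 29 other matrix glycoproteins higher and 4 lower, and 2 of the 19 assembly genes higher and 8 lower. The median log2 fold change of the last list was -0.26, against 0.01 for all tested genes. LOXL2, a lysyl oxidase, had 25.3 and 22.8 CPM in replicate 2 (TGF-β1 and control) against 69.9 and 73.6 CPM in replicate 1 (log2 fold change -1.58 ± 0.07; n = 2 each; edgeR adjusted p = 0.00086). FSTL1, a relative of SPARC, fell by 0.88 ± 0.05 on the log2 scale (edgeR adjusted p = 0.0011; n = 2 each), and SMOC1, another relative of SPARC, rose by 0.86 ± 0.14 (edgeR adjusted p = 0.0097; n = 2 each). ITGA3, an integrin subunit of basal epithelium, fell by 0.74 ± 0.05 and ITGB8, which with ITGAV binds latent TGF-β, rose by 0.62 ± 0.04 (SE; n = 2 each; edgeR adjusted p = 0.0011 and 0.0012).

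The genes nearest to each member in pattern were found by the Euclidean distance between mean-centred log2 CPM over the 4 libraries, among 9371 tested genes with a mean of at least 10 CPM. The nearest to FN1 was TAGLN, an actin-binding protein, with 11.6 and 26.2 CPM in TGF-β1 replicates 2 and 1 against 11.7 and 44.0 CPM in control replicates 2 and 1 (distance 0.17), followed by MVD. ADAM19, LCP1 and HMGCS1 were nearest to TNC (distances 0.33 to 0.42), FGFBP1, GLIPR1 and TUBB2A to THBS1 (0.22 to 0.29), GABRA2, LIPG and KATNAL1 to TGFBI (0.12 each), and PC, CYBRD1 and PIK3R1 to SPARC (0.08 to 0.10). TNC had 0 genes within a distance of 0.2, THBS1 had 0, FN1 1, TGFBI 9 and SPARC 35. With 4 libraries such likeness is mostly likeness in the difference between the replicate numbers.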

How the data were processed

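RNA from 4 cultures of MCF10A cells was sequenced as paired-end reads with a stranded total RNA kit, per the labels' protocols. The authors quantified transcripts with kallisto against GRCh38, per the submitters' processing notes, and neither the version of the tool nor the transcript release is stated in these sources. For each transcript the deposited tables hold estimated counts, TPM and effective lengths. Transcripts were matched by identifier to GENCODE release 29 (159239 of 173259, 91.9%; unmatched transcripts held 2.24% to 2.38% of counts) and summed per gene. Estimated counts were rounded and tested with edgeR 4.0.16 (quasi-likelihood, TMM scaling, filterByExpr, no covariate), with Benjamini-Hochberg adjustment over all features tested; CPM uses TMM-scaled library sizes. DESeq2 1.42.0 and limma 3.58.1 served as alternatives, and limma tested the ratio of retained-intron to other CPM. R was 4.3.3 and Python 3.11.15. The edgeR test and the limma ratio test, each without a covariate, were checked on simulated data without a difference between replicate numbers. That check does not cover data where this difference is large, as here. DESeq2 and the fits with the replicate number as a term were not simulated. Shares are of TPM unless counts are named. Tests rest on 2 libraries against 2, so p-values rest on the spread among these 4 libraries only. Without a further term, the spread within a side is between replicate numbers for TGF-β1 against control. For replicate 2 against replicate 1 it is between treatments, so those p-values do not measure how like cultures vary.

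The 6 genes, the gene lists and the rules were chosen with earlier results of these data known. Named were the 6 members, their transcripts with at least 10% of the gene's TPM in any library, the EDA and EDB classes, up to 3 genes of smallest p from each list (fewer are described), up to 3 nearest genes in pattern, and SMAD7 and SKIL as a check of the response; some genes that the rules name are not reported here. The retained-intron sums, DESeq2 with the replicate block and DESeq2 on transcripts were added after seeing the data. Same-numbered libraries deviated together from their group means (r = 0.76 over 14774 genes), but with 2 pairs and no label that says so, the numbers were not taken to pair the cultures.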

Additional observations from a re-analysis of the deposited data

How the results depend on the processing

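For TGF-β1 against control, edgeR called 0 genes; the count was 15 without a filter, 3 with an effective length offset, 90 with DESeq2, 334 (2.26%) with the replicate block, 245 with DESeq2 and that block, and 0 to 20 with each library left out. No member was called in any of these except THBS1, which DESeq2 with the replicate block put at -0.31 (adjusted p = 0.010). TGFBI, -0.11 in the report, was 0.0285 with limma on log2(TPM + 1) and 0.0286 on log2(TPM + 0.1), and 0.0039 in DESeq2 with the block. Leaving out 1 library compares unequal sets of replicate numbers, and the log2 fold changes then ranged as FN1 -1.14 to 0.69, TNC -2.18 to 1.63, THBS1 -1.46 to 0.89, TGFBI -0.85 to 0.96, SPARC -0.63 to 0.53, with every member changing sign. The named transcripts also changed sign, except SPARC-204 (0.37 to 0.99): FN1-204 -1.57 to 0.11, FN1-211 -0.87 to 0.35, FN1-212 -1.25 to 0.79, SPARC-201 -0.64 to 0.61, SPARC-202 -0.71 to 0.44, SPARC-209 -1.97 to 0.42, TGFBI-201 -1.11 to 0.81, THBS1-201 -1.48 to 0.91, THBS1-202 -1.18 to 0.84, TNC-201 -3.51 to 1.78, TNC-202 -2.67 to 2.73, TNC-210 -0.67 to 0.27, TNC-211 -0.96 to 0.99. For replicate 2 against replicate 1, where edgeR called 5524 genes, the count was 2599 at a threshold of 0.01, 3584 and 3611 with limma on log2(TPM + 1) and log2(TPM + 0.1), and 3018 to 4020 with each library left out. Members other than POSTN kept direction and call in 59 of 60 settings, the exception being FN1 without control replicate 2 (-1.77 to -1.01 over the libraries left out, adjusted p 0.0022 to 0.059). SPARC-204 ranged from -0.17 to 0.82.

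The retained-intron sums were 2.16 to 2.96 for TGFBI and 2.33 to 2.83 for FN1 with each library left out. TGFBI passed the threshold without TGF-β1 replicate 1 (adjusted p = 0.039) or 2 (0.019), and with the block the adjusted p was 0.014 for TGFBI and 0.018 for FN1, among 14 of 5370 sums (0.261%). The ratio to other transcripts was 2.66 (adjusted p = 4.11e-05) for TGFBI and 2.48 (0.0013) for FN1 with the block, where 25 of 5200 genes were called (0.481%), and 1.80 to 3.51 and 1.66 to 3.31 with each library left out, TGFBI passing without control replicate 2 (0.037) or TGF-β1 replicate 1 (0.048). The THBS1 ratio ranged from -0.38 to 0.73, and the retained-intron sums of THBS1 from -0.83 to 0.63 and of SPARC from -0.71 to 0.43. As shares of estimated counts in place of TPM, retained-intron transcripts held 3.41% of FN1 under TGF-β1 (16.8% of TPM), 1.74% and 1.47% of THBS1 under TGF-β1 and in controls (21.0% and 17.9%), and 42.6% and 45.6% of SPARC (34.2% and 38%). POSTN was left out, since its counts cannot set a fold. Where no cause is named, the cause was not tested.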

Other observations

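After TGFBI and FN1, the ratio of retained-intron to other transcripts differed most between TGF-β1 and control for TTC23, with a log2 difference of 2.25 (limma adjusted p = 0.64). Its log2 ratio was -3.23 and -2.50 in TGF-β1 replicates 2 and 1, against -4.82 and -5.41 in control replicates 2 and 1. CDK13, a kinase of the transcription machinery, stood at rank 9, and values of the genes at ranks 4 to 8 are not given. It had a log2 difference of 1.70 (limma adjusted p = 0.90), with -4.75 and -5.26 under TGF-β1 against -6.30 and -7.10 in the controls. In both genes the TGF-β1 libraries lay above the controls, and these genes were singled out after their values were seen. The genes at ranks 4 to 8 had the same order, so it does not set TTC23 and CDK13 apart. The share of all such ratios with that order was not computed.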
